A study of Mus musculus with 778 samples.

Results

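The genes described here are the 6 genes of the mouse subcortical maternal complex, *Nlrp5*, *Ooep*, *Tle6*, *Khdc3*, *Padi6* and *Zbed3*. They were chosen by name, as 6 of the 23201 rows of a table of transcript counts from single oocytes, and all 6 rows were found. Single oocytes of ICR mice with no genetic modification or treatment named in the labels were picked by hand at 5 stages of growth and measured by single-cell RNA-seq. The stages were non-growing oocytes (NGO, under 20 μm, 46 cells), growing oocytes GO1 (30–45 μm, 51 cells), GO2 (50–55 μm, 26 cells) and GO3 (60–65 μm, 44 cells), and fully-grown oocytes (FGO, over 70 μm, 56 cells). NGOs came from mice aged 3–4 days and all other oocytes from mice aged 3–4 weeks, so a change after NGO cannot be told apart from a change with the age of the mouse. How many mice gave the oocytes of a stage was not given in the sources used here.

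The subcortical maternal complex is a large protein assembly beneath the membrane of the mammalian oocyte, built from proteins that the oocyte makes while it grows and that the early embryo inherits. Mouse embryos of mothers that lack core members arrest at early cleavage, which is why the genes are known as maternal-effect genes. *Nlrp5* encodes MATER, a large NLR-family protein, and *Tle6* a relative of the Groucho co-repressors; together with the KH-domain protein encoded by *Ooep* (FLOPED) they form the core. *Khdc3* encodes the second KH-domain protein, FILIA, *Padi6* a member of the peptidylarginine deiminase family that is needed for the cytoplasmic lattices of the oocyte, and *Zbed3* a BED-type zinc-finger protein.

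The genes lie apart from each other in the genome, apart from *Ooep* and *Khdc3*, which share chromosome 9. In the GENCODE vM1 annotation of NCBIM37 (mm9), *Nlrp5* lies at chr7:24170908-24226941 on the plus strand. *Ooep* lies at chr9:78223916-78226532 on the minus strand, and *Khdc3*, under an older symbol there, at chr9:72949643-72952250 on the plus strand. *Tle6* (chr10:81053649-81063818) and *Padi6* (chr4:140283270-140298558) are on the minus strand, and *Zbed3* (chr13:96095192-96107796) is on the plus strand. *Khdc3* is overlapped on its own strand by 1 read-through gene, which has no row in the count table, so reads of that gene could be counted as *Khdc3*. The pseudogene *Nlrp5-ps* has a row of its own with 1 to 10 UMIs a stage, and reads shared with *Nlrp5* could go to either.

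RefSeq gave 10 promoters for the 6 genes, and each matched NCBIM37 exactly once. Those of *Padi6*, *Tle6* and *Ooep* are shown because these genes varied together among NGOs, and that of *Nlrp5* because it did not vary with them. Each runs 5′ to 3′ on the strand of its gene and holds only bases upstream of both the RefSeq and the GENCODE start. It therefore covers 250 bases for *Padi6* (chr4:140298559-140298808) and *Nlrp5* (chr7:24170658-24170907) and fewer for *Tle6* (chr10:81063819-81063895) and *Ooep* (chr9:78226533-78226645). Capitals mark the motifs CANNTG (E-box), GGGCGG (GC box) and TAATTG (the site of the oocyte factor NOBOX), each searched on both strands.
Padi6: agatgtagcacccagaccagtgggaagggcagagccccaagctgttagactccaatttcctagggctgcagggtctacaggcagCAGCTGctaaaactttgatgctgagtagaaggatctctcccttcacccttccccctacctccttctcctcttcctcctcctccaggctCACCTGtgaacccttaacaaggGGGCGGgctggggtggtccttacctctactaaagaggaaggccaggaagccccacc
Tle6: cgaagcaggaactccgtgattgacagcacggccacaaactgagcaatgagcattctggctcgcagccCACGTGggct
Ooep: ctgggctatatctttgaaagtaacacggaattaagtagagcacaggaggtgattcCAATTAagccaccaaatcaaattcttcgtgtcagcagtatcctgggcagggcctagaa
Nlrp5: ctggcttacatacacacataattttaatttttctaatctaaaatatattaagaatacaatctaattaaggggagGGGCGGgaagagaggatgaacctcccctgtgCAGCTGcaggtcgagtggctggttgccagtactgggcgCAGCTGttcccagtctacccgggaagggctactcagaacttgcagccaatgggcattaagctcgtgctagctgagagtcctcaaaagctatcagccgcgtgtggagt
Over the 250 bases upstream of the RefSeq start nearest the GENCODE start, CANNTG occurred in 6 of 6 genes, against 66.2% of 32851 RefSeq promoters of that length. GGGCGG occurred in *Nlrp5*, *Ooep*, *Tle6* and *Padi6*, 4 of 6, against 32.7% of all. TAATTG occurred in *Ooep* alone, as its reverse complement 195 to 190 bases before the start, against 7.17% of all. TATAAA occurred in *Zbed3* alone, against 12.4% of all. CANNTG reads as the same pattern on both strands, so each place was counted once, and *Khdc3* held 5 of them, including an overlapping pair. *Tle6* was the gene of the 4 shown with the E-box CACGTG, which it held at 2 places, of which 1 lies in the bases printed. These letters describe the sequence and are not evidence of binding.

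Each molecule carried a unique molecular identifier (UMI), so copies made in amplification were counted once. For each stage the UMIs of all its cells were added up and scaled to counts per 1000000 UMIs (CPM). CPM is a share, so an oocyte with more RNA in all is not told apart from one with less. The columns name a cell's stage and number but not which of 4 libraries it came from. Each stage is therefore 1 pooled sample, no test between stages was possible, and intervals (95%, exact) cover counting error only. A gene counted as higher or lower when its CPM was at least 2-fold apart and at least 10 in the higher stage. Cells held 22279 to 3898137 UMIs, and the median cell of GO1 held 110146, against 540432 to 972294 in the other stages. In GO1 and GO2 the 10 deepest cells gave 80.4% and 73.2% of all UMIs, so for the 6 genes the levels of cells are given beside the sums. For genes outside the complex the sums alone are given, and in GO1 and GO2 these describe mainly the deepest cells. The libraries used 96 distinct cell barcodes for 296 cell positions, and all 96 served at least 2 libraries.

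All 7 oocyte markers checked (*Zp1*, *Zp2*, *Zp3*, *Gdf9*, *Bmp15*, *Ddx4* and *Dazl*) exceeded 10 CPM in every stage, with a sum of 12438 to 24074 CPM. The 9 granulosa markers summed to 8.89 CPM in NGO, to 29.6, 28.4 and 23.3 CPM in GO1 to GO3 and to 12.7 CPM in FGO, with *Amh* at 0 to 3 UMIs a stage and *Cyp19a1* alone over 10 CPM. The 7 stroma and theca markers summed to 8.33 CPM in NGO and 1.05 to 1.49 CPM later, and of 5 blood markers 4 or 5 were at 0 in each stage. The 6 genes of the complex were at 968 CPM or more in every stage, above the summed CPM of each of these somatic lists.

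Some cells stood apart from their stage. In order of cell number, the split that most separated expression of the other genes was sought in each stage, with at least 4 cells in each part. Such a search returns a split in any stage. It fell between cells 40 and 41 in GO1, GO3 and FGO and between cells 22 and 23 in GO2. In GO2 and GO3 this was the last place the search allowed, so where these splits lie cannot be told apart from that limit. The later GO2 cells include cells 24 and 25, described below. All splits were found after the data were seen. The medians of the earlier and later cells were at least 2-fold apart for 18.03% of genes in GO1 and 15.5% in GO2. For GO3 the value was 8.59%, for FGO 7.94%, and for the split found in NGO 0.185%. The later cells (11 for GO1, 16 for FGO and 4 each for GO2 and GO3) were shallower than the earlier ones in all of these stages, with medians of 73158 against 182384 UMIs in GO1 and 424583 against 902068 UMIs in FGO. In GO2, cells 24 and 25 held little *Khdc3* (15 and 55 UMIs) and *Zp3* (551 and 545 CPM). The other 24 cells had at least 1799 CPM of *Khdc3* and 1574 CPM of *Zp3*. In GO1, cell 3 had 958 of its 39670 UMIs from *Zbed3*. The lowest GO2 values of *Padi6*, *Tle6* and *Ooep* given below come from cells 24 and 25. Among the other 24 cells the lowest were 539, 424 and 980 CPM. Values without the cells that stood apart are given for some of the results below.

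Transcripts of the complex were abundant at every stage, and their summed share of UMIs was highest before growth. *Nlrp5* and *Zbed3* were exceptions, with their highest sums in FGO (2937 CPM) and GO1 (3340 CPM). The paper reports from spike-ins that relative mRNA abundance was higher in GO1 than in NGO, so amounts per oocyte need not follow these shares. Together the 6 genes made up 2.43% of all UMIs in NGO (612853 UMIs) and 1.65% in FGO, with 1.17%, 1.12% and 1.22% in the growing stages GO1 to GO3. Per cell the share ran from 1.42% to 3.11% in NGO (median 2.31%), from 0.72% to 2.87% in GO1 (median 1.24%) and from 0.989% to 2.55% in FGO (median 1.65%), with medians of 0.983% in GO2 and 1.20% in GO3. Between NGO and GO1 the summed share was 2.08-fold lower (2.08 to 2.09), but the mean over cells was 1.80-fold lower. Of 51 GO1 cells, 50 were below the median NGO cell. Every gene had UMIs in each of the 223 cells, the fewest being 9 UMIs of *Padi6* in a GO2 cell. By summed CPM, *Padi6* was the 4th most abundant of all genes in NGO, and the lowest ranked was *Nlrp5* in GO2.

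**Figure D1:**
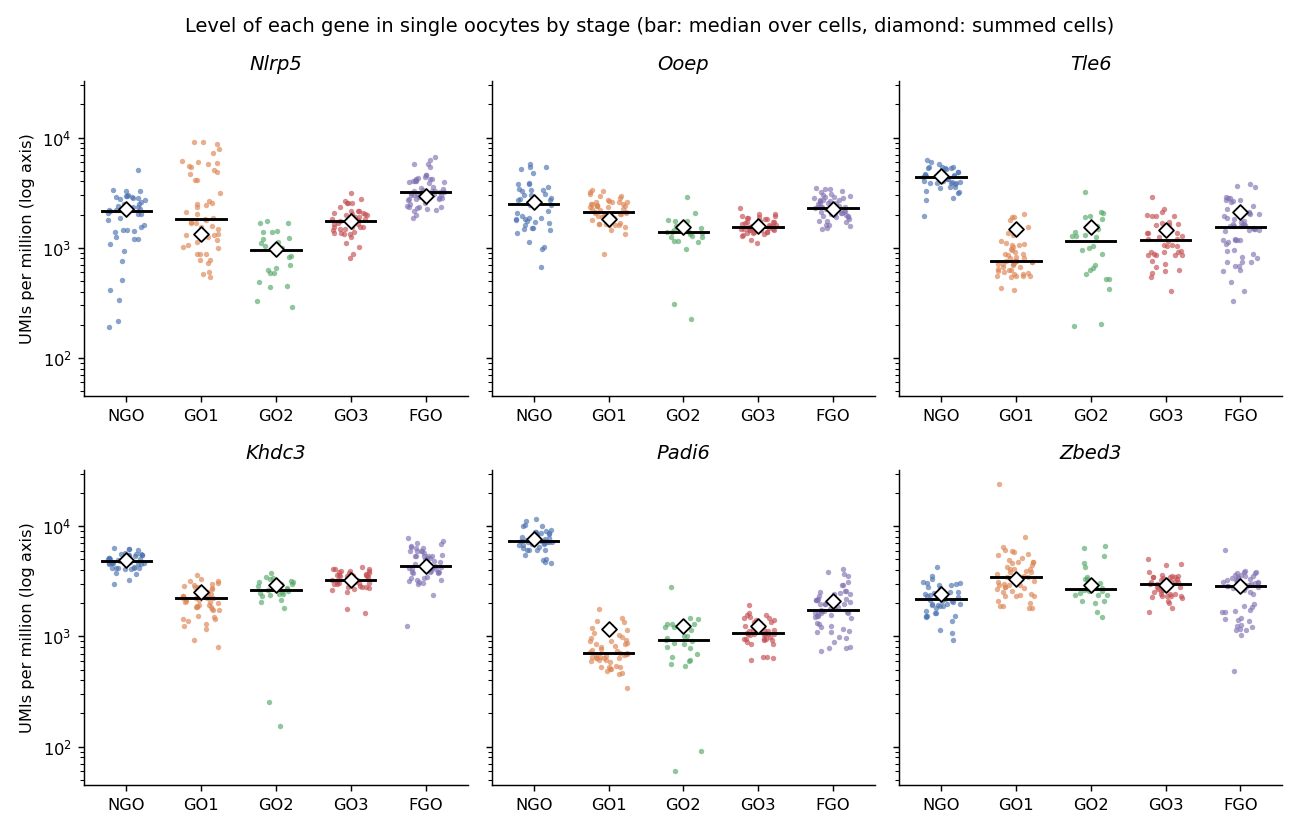
Level of the 6 genes in single oocytes (points) by stage, in CPM on a log axis shared by the panels; the bar is the median over cells and the diamond the CPM of the summed cells. The NGOs sit above every other cell for *Padi6*, with the lowest at 4688 CPM, whereas the GO1 cells of *Nlrp5* spread from 544 to 9176 CPM.

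*Padi6* and *Tle6* were the genes lower in GO1 than in NGO, 2 of 6, and no gene of the complex was higher. Over all 8527 genes that reached 10 CPM in this step, 46.3% were called in either direction and 25.7% lower in GO1, so 2 of 6 lies close to the background. The median log2 change of the 6 was −0.86, against −0.14 over all genes tested, the latter on log2(CPM + 1).

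*Padi6*, whose protein is needed for the lattices, showed the widest range of the complex. In NGO its cells held 4688 to 11606 CPM (median 7279). GO1 cells held 341 to 1770 CPM (median 706), GO2 cells 60.6 to 2782 (median 924), GO3 cells 611 to 1928 (median 1067) and FGOs 731 to 4087 (median 1742). No NGO overlapped a cell of any later stage, while the 4 later stages overlapped one another. How many of all genes separate NGOs from later cells in this way was not counted. The sum was 7637 CPM in NGO (7603 to 7671) and 1180 CPM in GO1 (1167 to 1193), 6.47-fold lower (6.39 to 6.55). By the median over cells the fall was 10.3-fold. By that measure the median change of all genes was also larger, at log2 −0.70 against −0.14 in sums. From GO3 to FGO the sum was 1.68-fold higher, below the 2-fold limit, and FGO remained 3.68-fold (3.65 to 3.70) below NGO.

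*Tle6*, the Groucho relative of the core, followed the same order by the median over cells, at a smaller size. By sums *Padi6* was lowest in GO1, and *Tle6* in GO3 (1446 CPM). Its NGO cells held 1952 to 6234 CPM (median 4421), and those of GO1 410 to 2031 (median 752). In the next stages, up to FGO, the medians were 1155, 1174 and 1547 CPM, with cells from 194 to 3219, 405 to 2910 and 331 to 3778. Of 46 NGO cells 45 were above every GO1 cell, and 36 were above every FGO. The sum was 4482 CPM in NGO and 1477 CPM in GO1, 3.03-fold lower (3.00 to 3.07), and 5.88-fold lower by the median over cells. It was still 2.14-fold lower (2.12 to 2.15) in FGO, a call that was lost with TMM scaling (log2 −0.92) and with 26 cells in every stage (log2 −0.95). In GO2, GO3 and FGO the CPM of *Tle6* was higher in deeper cells (Spearman 0.72, 0.52 and 0.58 with UMIs per cell), as was that of *Padi6* (0.79, 0.47 and 0.37); the part of depth in their levels was not tested. In FGO, cells 41 to 56 had a median *Tle6* level of 741 CPM against 1606 CPM in cells 1 to 40, and without them the sum was 2228 CPM instead of 2098. The 4 later cells were also low in GO2 (median 416 against 1280 CPM) and in GO3 (579 against 1225 CPM), and without them the sums were 1614 and 1468 CPM instead of 1557 and 1446. The part of cell number was not tested.

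*Khdc3* and *Ooep* encode the KH-domain proteins. *Khdc3* held 3005 to 6388 CPM in NGO cells (median 4860) and 794 to 3617 in GO1 (median 2216). Its medians then stood at 2658, 3254 and 4315 CPM up to FGO, the highest cell being an FGO with 7797 CPM. Each of the 51 GO1 cells was below the median NGO, and 48 of 56 FGOs were above the median GO3 cell. The sums were 4948 CPM in NGO and 2521 in GO1, 1.96-fold apart (1.94 to 1.98), just under the limit. The mean over cells was 2.22-fold apart, and *Khdc3* passed the limit in 5 of the 14 other settings tried. By the mean over cells the median change of all genes was larger too, at log2 −0.35 against −0.14 in sums. With DESeq2 and TMM scaling the change of *Khdc3* was smaller, at log2 −0.87 and −0.81 against −0.97. Between NGO and FGO it differed 1.14-fold.

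*Ooep* changed least among the 3 core genes. NGOs held 665 to 5778 CPM (median 2487), GO1 cells 882 to 3353 (median 2125), GO2 cells 224 to 2908 (median 1392), GO3 cells 1108 to 2314 (median 1549.5) and FGOs 1481 to 3493 (median 2296). The stages overlapped throughout, and NGOs alone spread over 8.68-fold. The highest and lowest sums, 2615 CPM in NGO and 1543 in GO2, were 1.69-fold apart. *Dppa5a*, which encodes another KH-domain protein of oocytes and pluripotent cells, is the nearest annotated gene to *Ooep*, 7932 bases away on the same strand. It summed to 2848, 1465, 1393, 2319 and 3855 CPM from NGO to FGO.

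*Nlrp5* had its highest sum in FGO, at 2937 CPM, unlike the other genes of the complex. In the NGO sum it stood at 2236 CPM, and then at 1340, 968 and 1764 CPM in the stages between. From GO2 to FGO the sum was 3.03-fold higher over both steps, 1.82-fold (1.80 to 1.85) to GO3 and 1.66-fold (1.65 to 1.68) from there. FGO cells (1862 to 6677 CPM, median 3205) did not overlap GO2 cells (292 to 1755, median 958), and how many of all genes do the same was not counted. GO3 cells lay between them at 803 to 3143 (median 1756), and NGOs spread from 191 to 5097 (median 2156).

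The direction of *Nlrp5* between NGO and GO1 depended on how cells were weighted. The sum was 1.67-fold lower in GO1, while the mean over cells was 1.47-fold higher, 2976 CPM in GO1 against 2025 in NGO. Of GO1 cells 11 were above every NGO and 29 below the median NGO. *Nlrp5* CPM was lower in deeper GO1 cells (Spearman −0.67 with UMIs per cell) and in deeper FGOs (−0.64). Cells 41 to 51 of GO1 held 2446 to 9176 CPM (median 5984) against a median of 1560 in cells 1 to 40, and within cells 1 to 40 the correlation with depth was −0.64. Without cells 41 to 51 the GO1 sum was 1199 CPM. The parts of depth and of cell number were not tested.

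*Zbed3* was the gene with its lowest sum in NGO. NGO cells held 920 to 4298 CPM (median 2170), and GO1 cells 1801 to 24149 (median 3449). The highest GO1 value is that of cell 3, and the others reached 7925 CPM. After GO1 the medians were 2674, 2963 and 2872 CPM, with FGOs from 489 to 6027. The ranges of all stages overlapped, but 45 of 51 GO1 cells were above the median NGO. The sums, 2403 CPM in NGO, 3340, 2910 and 2917 CPM in GO1 to GO3, and 2842 CPM in FGO, were at most 1.39-fold apart. The difference between low and high cell numbers was widest in FGO, at −1.22 on the log2 scale between medians. Cells 41 to 56 held 489 to 1847 CPM (median 1323), all below the median of cells 1 to 40 (3085 CPM). In GO1, too, all 11 cells numbered over 40 were below the median of the others (medians 2349 and 3894 CPM). Without the later numbers the FGO sum was 3065 CPM, and the change from GO3 turned from −0.04 to 0.07 on the log2 scale.

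**Figure D2:**
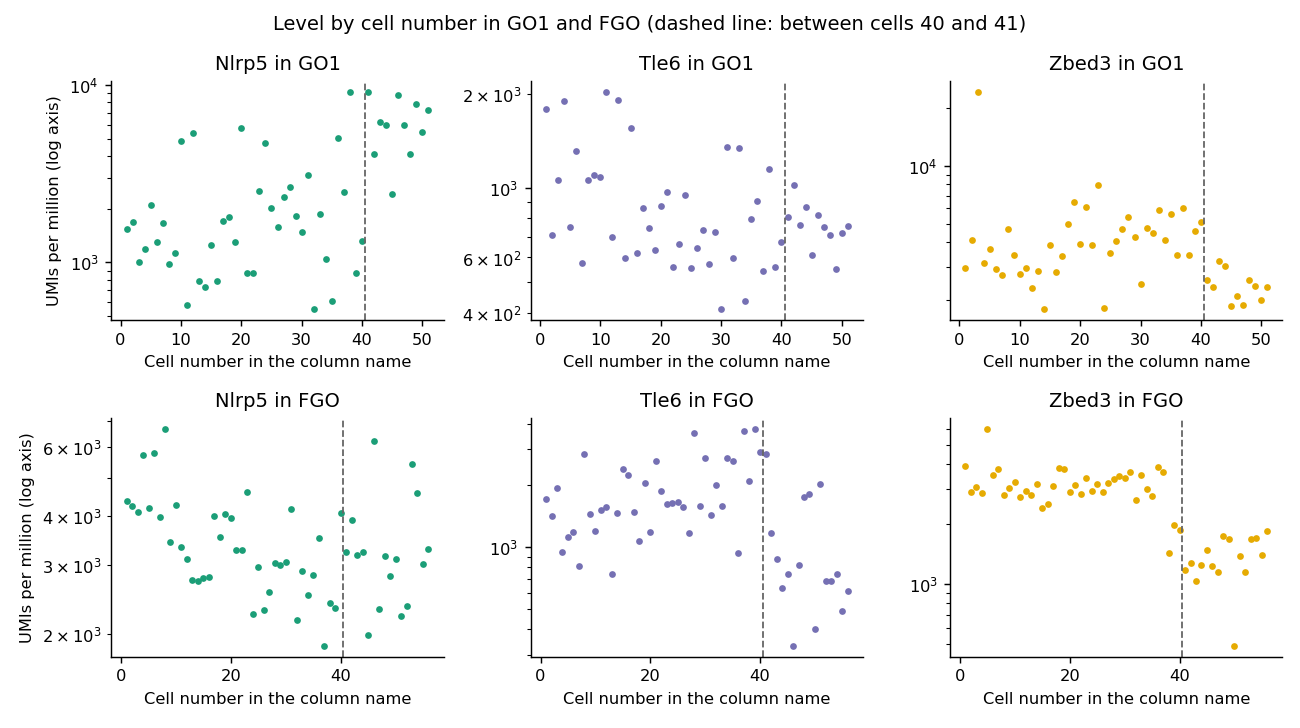
Level of *Nlrp5*, *Tle6* and *Zbed3* (CPM, log axis) against the cell number in GO1 (top) and FGO (bottom); each point is 1 cell and the dashed line lies between cells 40 and 41. To the right of the line *Nlrp5* was high in GO1 (median 5984 CPM), and *Zbed3* was low in FGO (median 1323 CPM).

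In the 3 steps after GO1 none of the 6 genes passed the 2-fold limit. The background was also small there, at 3.14%, 4.35% and 5.96% of genes called in the order of the steps. From GO3 to FGO 5 of 6 values were higher, with a median log2 change of 0.52 against 0.06 over all genes, and *Zbed3* was the exception. Each of those 5 kept its sign in the 11 other settings tried, at 0.34 to 0.97 on the log2 scale. Between NGO and FGO *Padi6* and *Tle6* were lower, 2 of 6 against 27.3% of genes called in either direction and 16% lower in FGO. In GO1 to GO2 the sum of *Nlrp5* was 1.38-fold lower, but its mean over cells was 3.13-fold lower.

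**Figure D3:**
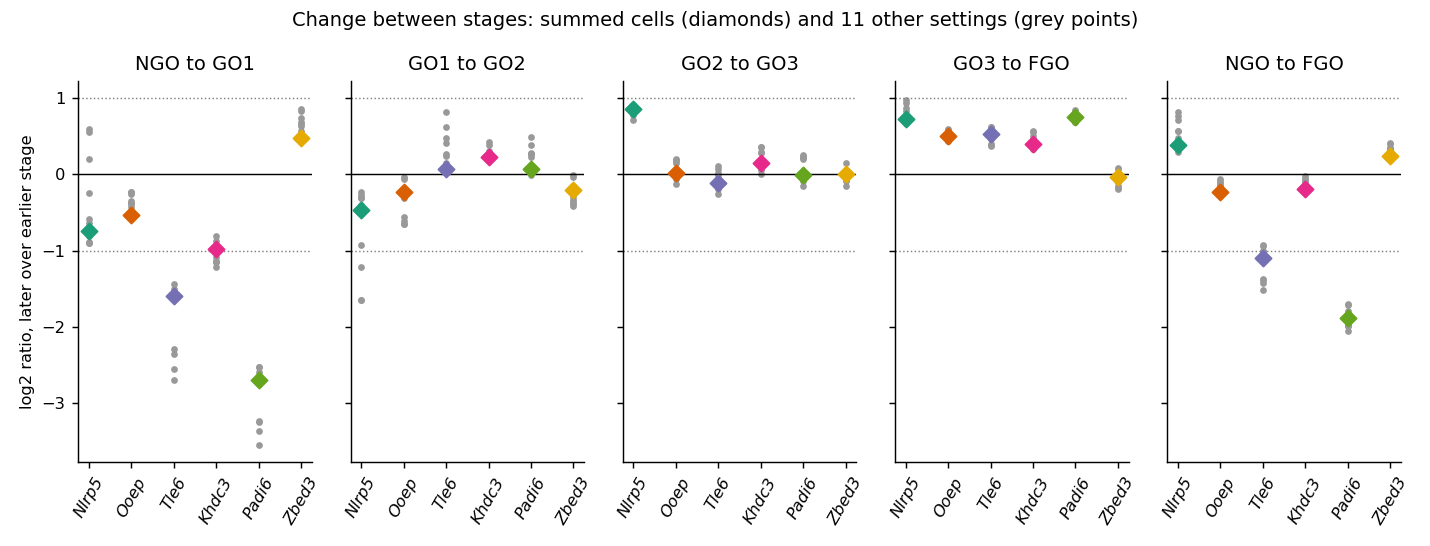
log2 ratio of the later over the earlier stage for each gene, from summed cells (diamonds) and from 11 other ways of scaling or choosing cells (grey points); dotted lines mark the 2-fold limit. *Padi6* and *Tle6* lie below the lower line from NGO to GO1 in every setting, while the points of *Nlrp5* lie on both sides of 0.

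The relative amounts of the 6 transcripts were described by each gene's share of the UMIs of the 6. This share can still move with depth, because the genes were related to depth in different ways, and in GO1 the summed share rests mainly on the deepest cells. UMIs count molecules whatever the length of the transcript, though capture can differ between genes. *Padi6* made up 31.4% (31.3% to 31.5%) in NGO and 10.1% to 12.6% in the later stages. By the median over cells it was 32.03% in NGO, 5.84% in GO1 and 9.49% to 11.2% after that. *Tle6* made up 18.4% in the NGO sum and 12.7% in that of GO1, with cell medians of 18.3% and 5.88%. *Zbed3* made up 9.88% in NGO, then 28.6%, 26.1% and 23.9% while oocytes grew and 17.2% in FGO, with cell medians of 9.41% in NGO, 30.1% in GO1 and 16.6% in FGO. *Nlrp5* went from 8.67% in GO2 to 17.8% in FGO (cell medians 10.1% and 19.9%). In GO1 its summed share was 11.5% and its cell median 15.4%. *Khdc3* held 20.3% to 26.8% of the sums throughout, with cell medians from 18.98% in GO1 to 27.6% in FGO. Within cells, the *Padi6* share of NGOs (24.6% to 40.1%) lay above that of every later cell, of which the highest was 18.998%. All 46 NGOs held more *Padi6* than *Zbed3*, as did no cell of GO1, GO2 or GO3 and 13 of 56 FGOs. Most of these FGOs were numbered over 40, where *Zbed3* was low (median 1323 against 3085 CPM). The most abundant of the 6 was *Padi6* in 41 of 46 NGOs, *Zbed3* in 32 of 51 GO1 cells with *Nlrp5* in 17, *Khdc3* and *Zbed3* in 13 each of 26 GO2 cells, and *Khdc3* in 31 of 44 GO3 cells and 46 of 56 FGOs. *Nlrp5* led in every GO1 cell numbered 41 to 51, the later cells described above, and in few of the earlier GO1 cells.

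**Figure D4:**
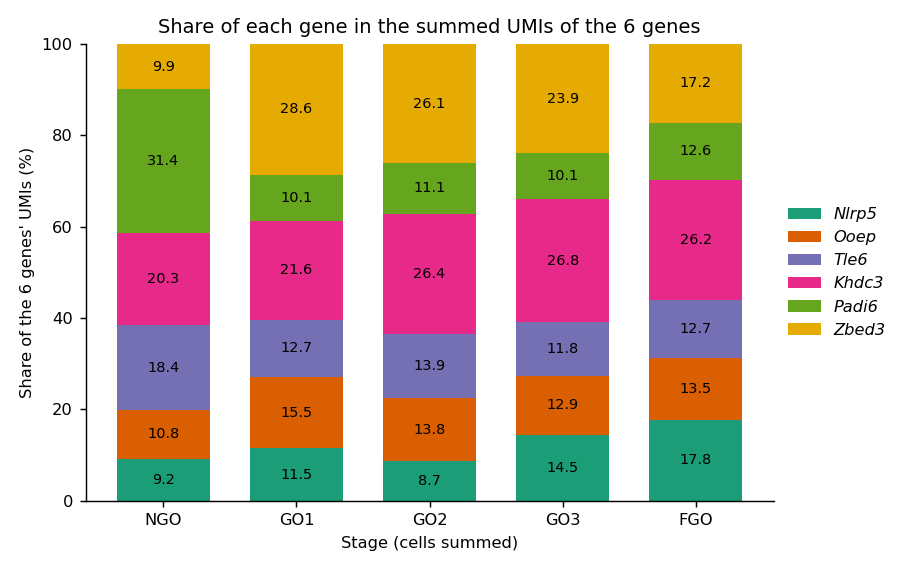
Share of each gene in the summed UMIs of the 6 genes by stage, in percent, stacked to 100 (bars). *Padi6* falls from 31.4% in NGO to 10.1% in GO1, while *Zbed3* goes from 9.9% to 28.6%; the GO1 bar rests mainly on the deepest cells, and the median GO1 cell had 5.84% of *Padi6*.

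Among cells of 1 stage, *Tle6* and *Padi6* varied together, and they were the sole pair of 15 with a correlation above 0 in all 5 stages. After each cell was thinned to 20000 UMIs, their Spearman correlation was 0.73 over 46 NGOs, 0.44 over 51 GO1 cells, 0.78 over 26 GO2 cells, 0.58 over 44 GO3 cells and 0.83 over 56 FGOs. Cells of a stage share its diameter window, and may share a library and a mouse. In NGO each was the most correlated of 2819 genes with the other, and there *Tle6* and *Padi6* CPM were weakly related to depth (0.20 and 0.11). *Padi6* ranked 36th for *Tle6* in GO1, 11th in GO2, 45th in GO3 and 4th in FGO. *Tle6* ranked 74th, 5th, 7th and 2nd for *Padi6* in the same order. In GO2, GO3 and FGO both were higher in deeper cells (0.72, 0.52 and 0.58 for *Tle6*, 0.79, 0.47 and 0.37 for *Padi6*). The part of depth in the correlation of the pair was not tested. In cells 1 to 40 alone the correlation was 0.48 in GO1 and 0.75 in FGO, and without cells 24 and 25 it was 0.73 in GO2. *Ooep* joined the pair in NGO, at 0.66 with *Tle6* and 0.67 with *Padi6*. The same correlations were lower in GO2 (0.32 and 0.41) and FGO (0.01 and 0.21), and were 0.02 and −0.04 in GO1 and −0.27 and 0.03 in GO3. Without cells 24 and 25 those of GO2 were 0.15 and 0.25, and in cells 1 to 40 of FGO they were 0.13 and 0.35. *Ooep* and *Khdc3* went opposite ways among NGOs (−0.47) and not in FGO (0.30, and 0.46 in cells 1 to 40). Correlations of *Nlrp5* with the other 5 genes ran from −0.38 to 0.40 over all stages.

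**Figure D5:**
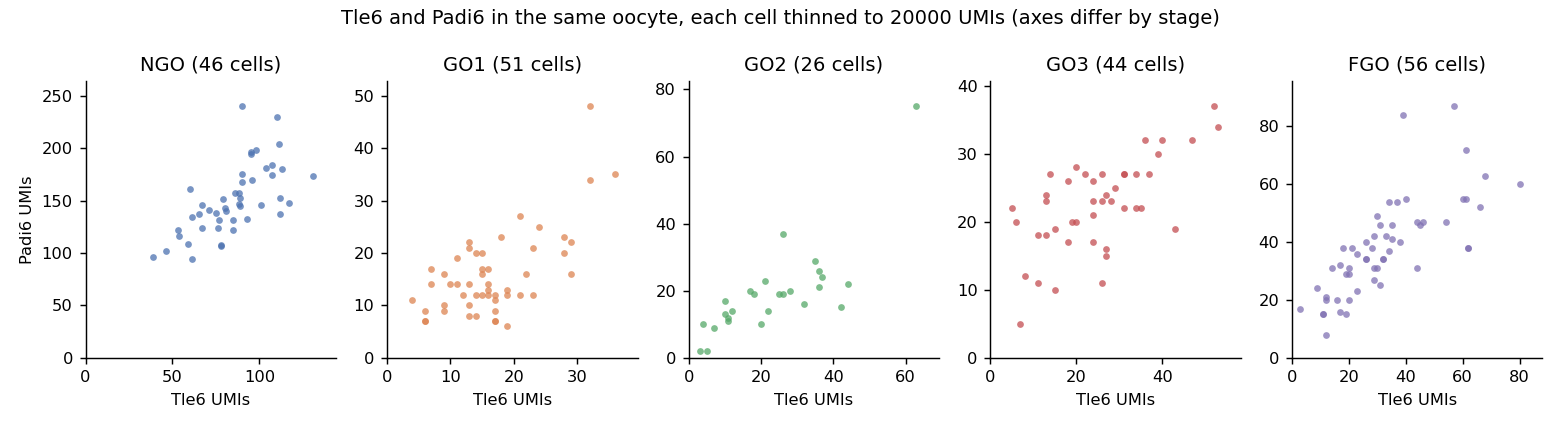
UMIs of *Tle6* (x axis) and *Padi6* (y axis) in the same oocyte by stage, with each cell thinned to 20000 UMIs; each point is 1 cell and the axes differ between panels. Cells with more *Tle6* tended to hold more *Padi6* in each stage, loosely in GO1 (Spearman 0.44) and most closely in FGO (0.83).

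In thinned cells the coefficient of variation was 1.08 times (*Ooep* in GO3) to 7.16 times (*Zbed3* in GO1, with cell 3 included) that of Poisson counts with the same mean. *Nlrp5* in GO1 had the largest coefficient of variation, 0.83, and *Khdc3* in NGO the smallest, 0.18. *Nlrp5* varied less in the other stages, at 0.54 in NGO, 0.46 in GO2, 0.28 in GO3 and 0.35 in FGO. Its GO1 value spans the earlier and later cell numbers, with medians of 1560 and 5984 CPM.

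The genes most like each member over the 5 stages were ranked among the 4519 that reached 50 CPM somewhere. The measure was the RMS (root mean square) difference between log2(CPM + 1) profiles, each centred on its mean. None was another gene of the complex. Nearest to *Padi6* were *Ech1* (RMS 0.039), *Plin3* and *Fam174a*, and *Tle6* was 295th of its list. Nearest to *Tle6* were *Ap1s1* (0.039), *Stxbp2* and *Mcee*. Nearest to *Khdc3* were *Pigs* (0.029), *Hcfc1r1* and *Rfc5*, to *Ooep* *Snap47* (0.041), *Chmp3* and *Eepd1*, to *Nlrp5* *Mtus2* (0.081), *Rufy2* and *Esf1*, and to *Zbed3* *Fam193a* (0.026), *Xrcc4* and *C8b*. The closest pair within the complex was *Ooep* and *Khdc3* (0.20), and the farthest *Padi6* and *Zbed3* (1.16).

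Partners of the complex and of the lattices were measured from a list of 10, all of which reached 10 CPM. From NGO to GO1 *Nlrp2* was higher, and *Nlrp14*, *Uhrf1* and *Tubb2b* were lower, 4 of 10 called against 46.3% of all genes. *Nlrp14*, an NLR protein that binds UHRF1, summed to 4806 CPM in NGO, to 2122, 1574 and 2211 CPM in the growing stages and to 3235 CPM in FGO. *Uhrf1*, the partner of maintenance DNA methylation that the lattices store, stood at 1169 CPM in NGO and 300.3 in GO1, a log2 change of −1.96. *Ube2d3* and *Skp1a*, of the ubiquitin pathway, were not called, at log2 −0.36 and 0.64. No partner was called in the 3 later steps, where 3.14% to 5.96% of all genes were. From NGO to FGO *Nlrp2* was higher and *Uhrf1* lower among the 10, against 27.3% of all genes called in either direction.

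Apart from *Nlrp14*, *Khdc1b* and *Dppa5a*, relatives of the members by family stayed below the lowest level of any member. There were 16 *Nlrp* relatives with a row, of which 10 reached 10 CPM, and 3 of these are also among the partners above. From NGO to GO1 7 of the 10 were higher, against 20.6% of all genes, and 2 were lower (*Nlrp14* and *Nlrp4c*). *Nlrp9c* went from 8.49 to 182 CPM, *Nlrp9a* from 54.5 to 233 CPM and *Nlrp4e* from 10.4 to 75.7 CPM. The median of the 10 was 1.72 on the log2 scale, against −0.14 over all genes. None of the 4 *Padi* relatives reached 10 CPM, and *Padi4*, 3222 bases from *Padi6*, stayed between 2.19 and 4.44 CPM. *Tle2*, 59 bases from *Tle6* on the other strand, was at most 1.75 CPM. Of 5 *Tle* relatives 3 reached 10 CPM from NGO to GO1. Of these *Tle4* (91.1 to 44.4 CPM) and *Aes* (38.5 to 13.3 CPM) were lower in GO1 as *Tle6* was, against 25.7% of all genes. *Tle1* (10.2 to 7.10 CPM) was not called. Of 3 *Zbed* relatives 1 reached 10 CPM in this step, *Zbed4*, and it was higher in GO1 (11.8 to 36.97 CPM). Of 4 KH-domain relatives 3 reached it, and *Khdc1a* alone was called, as higher (28.2 to 75.3 CPM). The background called higher was 20.6% of all genes.

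Of 17 other maternal-effect genes, 5 were higher in GO1 than in NGO and 4 lower, against 20.6% and 25.7% of all genes. Their median log2 change was −0.20, against −0.14 over all genes, so the list lay near the background. *Dppa3* (9193 to 4955 CPM), which protects maternal methylation, *Zar1* (3201 to 1819 CPM) and *Btg4* (600.4 to 1707 CPM), an adaptor for mRNA decay, were among the 4 most abundant, and so was *Npm2* (2920 to 1302 CPM), a histone chaperone. Of these *Npm2* was called lower and *Btg4* higher. Of 7 oocyte transcription factors 5 were lower in GO1 and none higher, against 25.7% and 20.6% of all genes. *Figla* went from 597 to 65.5 CPM, *Sohlh1* from 374 to 0.336 CPM and *Lhx8* from 408 to 199 CPM, while *Nobox* was at 1244 and 897 CPM and not called.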

How the data were processed

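Single mouse oocytes were sequenced in 4 libraries. The authors split the reads by cell barcode, aligned them with Tophat to the mm9 transcriptome, removed duplicates by UMI, filtered cells on detected genes, transcripts and spike-ins, and deposited UMI counts per gene and cell without normalization. A filter before deposit can remove poor or unusual cells. Whether counting used strand was not given in the sources used here. The library of a cell is not named, so cells of a stage were summed as 1 sample with no test. Oocytes were picked by hand, and no doublet caller was run. Chromatin and methylation data of the series were not used here.

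The 6 genes and the gene lists were chosen with earlier results of these data known. CPM of summed cells, exact Poisson and binomial 95% intervals, cells thinned to 20000 UMIs (seed 1) and Spearman correlations were computed with Python 3.11.15, numpy 2.4.6, pandas 2.3.3 and scipy 1.17.1, and figures drawn with matplotlib 3.10.9. Alternatives were DESeq2 1.42.0 size factors and edgeR 4.0.16 TMM factors (R 4.3.3, for scaling only), means and medians over cells, thinned cells, 26 cells per stage, sums without the 10 deepest cells or without cells under 50000 UMIs, limits of 1.5-fold, of 50 CPM and of no CPM minimum, and 3 exclusions of cells chosen after seeing the data. Besides the 6 genes, the text names genes with at least 10 CPM from the lists, the 4 most abundant or those called, and for each member the 3 genes of most similar stage profile. Genes of the lists named for a direction or as neighbours (*Padi4*, *Tle2*, *Dppa5a*, and the examples among the relatives and transcription factors) were chosen after their values were seen. Promoters are those of RefSeq (GRCm38.p6), matched to NCBIM37 by sequence. Stage totals were 24976634 to 64311908 UMIs, and the relatively widest interval of a member's sum was that of *Nlrp5* in GO2, 956 to 980.1 CPM around 968.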

Additional observations from a re-analysis of the deposited data

How the results depend on the processing

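*Padi6* and *Tle6* were called lower in GO1 than in NGO in all 14 settings. The number of genes called there was 3 with *Khdc3* in 5 settings and 4 with *Nlrp5* and *Khdc3* at a 1.5-fold limit. From GO1 to GO2 it was 1 instead of 0 (*Nlrp5*, lower) by the mean over cells, in thinned cells and without the 10 deepest cells. At 1.5-fold it was 1 from GO2 to GO3 (*Nlrp5*) and 2 from GO3 to FGO (*Nlrp5* and *Padi6*), all higher. From NGO to FGO it was 1 instead of 2 with TMM factors and with 26 cells per stage, where *Tle6* was lost. The causes were not tested. The share of all genes called was not counted in these other settings, so these counts have no background beside them. Of 30 ratios of single genes 23 kept their sign in all 11 scalings and choices of cells. The 7 that did not were *Nlrp5* from NGO to GO1 (−0.90 to 0.60 on the log2 scale, above 0 by the mean over cells, in thinned cells and without the 10 deepest cells), *Padi6* from GO1 to GO2, *Ooep*, *Tle6*, *Padi6* and *Zbed3* from GO2 to GO3, and *Zbed3* from GO3 to FGO. The sum of the 6 genes was −1.06 from NGO to GO1, and −0.96 with DESeq2 and −0.90 with TMM factors. Over all genes the median change from NGO to GO1 was −0.14 in CPM, −0.02 with DESeq2 and 0.05 with TMM factors, and from GO1 to GO2 it was −0.11, 0.09 and 0.06. From NGO to GO1 it was −0.35 by the mean over cells and in thinned cells. It was −0.43 without the 10 deepest cells and −0.70 by the median over cells, so larger falls per cell were partly shared by all genes. No paired analysis was possible because the columns carry no replicate number that is shared between stages, and no result comes from a test. Counts per cell of 9 or more UMIs limit the precision of the lowest single-cell values.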

Other observations

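*Dppa5a*, the gene next to *Ooep*, was highest in FGO as *Nlrp5* was, and both had their lowest sum in GO2 (1393 and 968 CPM).

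GO2 cells 24 and 25 held 92 and 61 CPM of *Padi6*, 306 and 224 of *Ooep* and 194 and 205 of *Tle6*, each below all other 24 cells of the stage. Their *Zbed3* (6622 and 6373 CPM) was above all of those, while *Nlrp5* (827 and 592 CPM), *Dppa3* (7459 and 7646 CPM) and *Dazl* (480 and 466 CPM) were within the range of the stage.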
